A study of Homo sapiens with 6 samples.

Results

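PRICKLE1 and 9 further genes of the planar cell polarity pathway (PRICKLE2, PRICKLE3, VANGL1, VANGL2, CELSR1, CELSR2, CELSR3, DVL1 and DVL2) were examined as 10 of the 40205 gene symbols in the count table. PRICKLE1 was chosen by its lower read counts in the treated samples of this same data set, so its values are given as a description without a test. The other 9 were taken as members of its pathway, and their counts were not part of the rule, although earlier results of these data were known when the list was made. RNA-seq had been run on an established line labelled HepG2, a human liver cancer cell line, in 3 untreated control samples and 3 samples exposed for 24 h to cationic liposomes (CLs), a lipid carrier for nucleic acids and drugs made here of DOTAP, cholesterol and a PEGylated phospholipid. The labels give the concentration as 120 μM. The study's text gives 120 μg/ml for its experiments after the viability assay, but 120 μM in its cell cycle methods. The study's text calls the samples independent, and neither it nor the labels say that the 3 samples of a group were separate cultures. The p-values thus measure the spread between these samples, which may be technical.

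Planar cell polarity is the system by which cells of a sheet orient themselves in the plane of the tissue. In its core, the cytoplasmic proteins Prickle and the membrane proteins Vangl gather on the side of a cell opposite to Frizzled and Dishevelled (DVL), and the atypical cadherins CELSR join the sides of neighbouring cells. Prickle proteins carry a PET domain and LIM domains and are anchored to membranes by a lipid group. The same proteins act in cell migration, and Dishevelled also relays the canonical Wnt signal to beta-catenin.

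Totals of 11418527 to 13998946 counts per sample were assigned to genes. The genes that define the labelled cell line were nearly absent. Over the list of 10 hepatocyte genes fixed for this check, the summed count was 5, 18 and 16 in Control-1 to Control-3 and 78, 3 and 0 in CLs-1 to CLs-3. ALB was at 0 counts in every sample except CLs-1, which had 8, AFP did not exceed 1 count, and TTR was at 0 throughout. In the list of 6 fibroblast or stroma genes, the fibrillar collagen genes COL3A1, with 7456 to 11358 counts per sample, and COL1A1, with 764 to 2472, held nearly all reads. Outside CLs-1 the other 4 (COL1A2, THY1, DCN and LUM) had at most 5 counts each, so this list did not mark the cells either. The samples are therefore called control and CLs-treated below, and nothing in the values is taken as specific to liver cells. CLs-1 stood apart from the rest in the counts of some of these genes. Its 3 red blood cell genes summed to 476 counts against at most 4 in any other sample, its 5 steroidogenic genes to 466 against at most 32, and its COL1A2 to 1044 against at most 2. The endothelial list summed to 43 counts in Control-3, of which CDH5 held 36, and to 1 to 5 counts in each other sample. The leukocyte list summed to 3 to 12 counts, with CD3E at 0 in all samples. Log2 fold changes fitted without CLs-1 are given below for PRICKLE1 and as a range for the 7 other tested members. They are also given for those of the further named genes that moved most or were called.

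PRICKLE1, the gene of a core cytoplasmic protein of the pathway, was the member with the lower counts after exposure. The control samples Control-1 to Control-3 held 131, 90 and 93 reads of it, and the treated samples CLs-1 to CLs-3 held 35, 23 and 18. Every treated sample lay below every control sample, and Control-1 was the highest of the 6. Scaled to counts in each 1000000 of the TMM-adjusted library total over the genes tested (CPM), these were 11.4, 7.77 and 7.98 CPM in the control samples and 2.42, 1.99 and 1.58 CPM in the CLs-treated samples. The mean was 9.04 ± 2.02 CPM (SD, n = 3) in the control group and 2.00 ± 0.423 CPM (SD, n = 3) in the treated group. In edgeR's fit the log2 fold change was -2.16 (standard error, SE, 0.27), a level 4.48-fold higher in the control group. Among the 15047 genes with enough reads to be tested, 3 genes had a lower log2 fold change, PRICKLE1 being at rank 4 from the lowest. Without CLs-1, the sample with the red blood cell and steroidogenic counts, the log2 fold change was -2.34, and without Control-1, the highest sample, it was -1.96. In a bulk sample, fewer cells that carry a transcript and less of it per cell cannot be told apart.

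**Figure D1:**
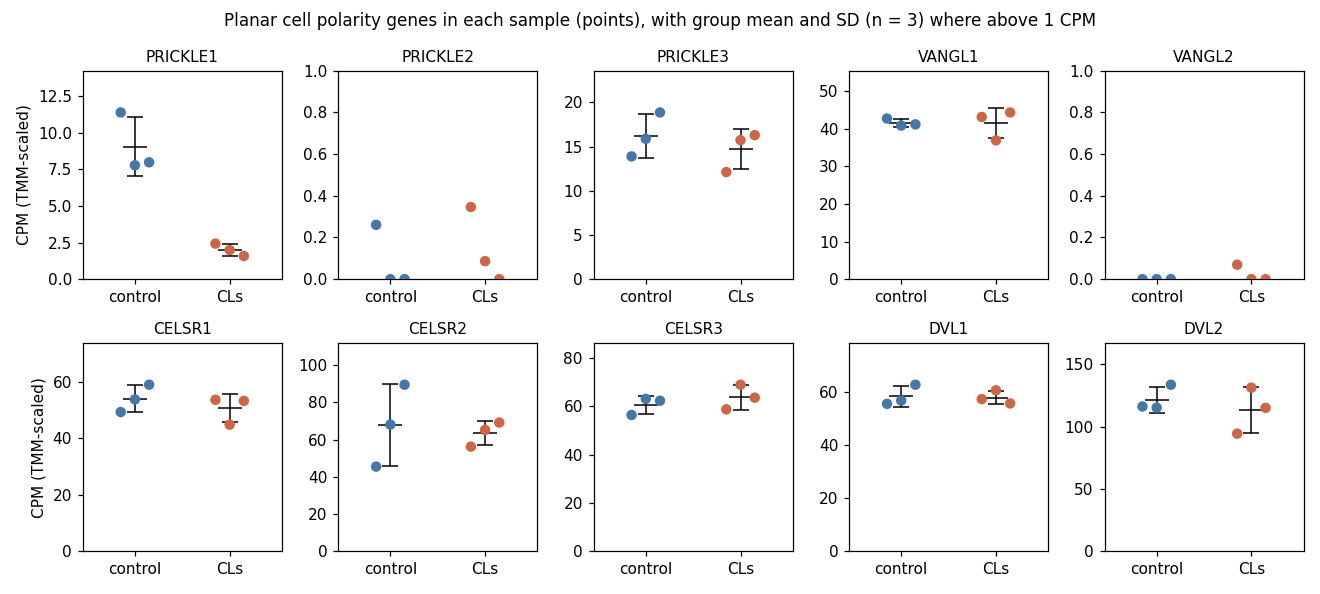
Level of each of the 10 planar cell polarity genes in CPM (y axis, from 0, a scale of its own per gene) in the 3 control samples (blue points) and the 3 CLs-treated samples (orange points), samples 1 to 3 from left to right. Black bars are the group mean and SD for genes above 1 CPM; PRICKLE1 lay between 7.77 and 11.4 CPM in the control group and between 1.58 and 2.42 CPM in the CLs-treated group, and the groups of each other gene overlapped.

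Reads on PRICKLE1 could in part come from other transcripts only where the counting assigned reads in shared bases to PRICKLE1, which was not tested. In the GENCODE release 29 annotation (GRCh38), 22.5% of the exonic bases of PRICKLE1 on chromosome 12 are shared with the antisense gene AC079601.1, and 5.31% with PPHLN1 on the opposite strand. The strand setting of the counting was not given in the sources used here, so sense and antisense reads cannot be told apart. PPHLN1 itself had 73.97 ± 8.28 CPM (SD, n = 3) in the control group and 79.6 ± 3.03 CPM (SD, n = 3) in the treated group, for a log2 fold change of 0.11 (SE 0.13). The part of AC079601.1 in the PRICKLE1 counts was not tested.

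The other PRICKLE genes had counts of another pattern. PRICKLE3, a paralog on the X chromosome, had 160, 184 and 220 counts in the control samples and 175, 182 and 186 counts in the CLs-treated samples, and the groups overlapped. Its level was 16.2 ± 2.50 CPM (SD, n = 3) in the control group and 14.7 ± 2.27 CPM (SD, n = 3) in the treated group. For PRICKLE3 the log2 fold change was -0.14 (95% interval -0.57 to 0.28), and its adjusted p-value by the edgeR test over all genes was 0.998. PRICKLE2, a paralog best known from the nervous system, held 3, 0 and 0 reads in the control samples and 5, 1 and 0 in the treated samples, in their numbered order. Of the 6 libraries, CLs-1 alone was above the floor of 3 counts, which corresponds to 0.208 to 0.263 CPM and covers counting error only, so no fold change is given. PRICKLE4, a divergent relative that is not among the 10 genes, had 88, 88 and 111 counts in the control samples and 61, 70 and 73 counts in the CLs-treated samples, and these groups did not overlap. Its log2 fold change was -0.58 (SE 0.23, edgeR adjusted p = 0.760), and 90.8% of its exonic bases are shared with the same-strand gene AL365205.1, which makes its counts uncertain.

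The make-up of the PRICKLE family followed from these counts. PRICKLE1 made up 34.3% of the 382 reads on the 4 PRICKLE genes in Control-1 (exact 95% binomial interval 29.5 to 39.3%), 24.9% of 362 reads in Control-2 (20.5 to 29.6%) and 21.9% of 424 reads in Control-3 (18.1 to 26.2%). In the CLs-treated samples its share was 12.7% of 276 reads in CLs-1 (8.99 to 17.2%), 8.33% of 276 in CLs-2 (5.36 to 12.2%) and 6.50% of 277 in CLs-3 (3.90 to 10.1%). The highest treated share, in CLs-1, had an interval that ended below that of the lowest control share. PRICKLE3 took 41.9 to 51.9% of the family's reads in the control samples and 63.4 to 67.1% in the CLs-treated samples. PRICKLE4 held 23.0 to 26.2% and 22.1 to 26.4%. These are shares of reads that are not corrected for transcript length, and as PRICKLE1 was chosen for its change, they describe it and are no further evidence. The intervals cover counting error only. Summed over the 4 genes, the family had 33.2, 31.3 and 36.4 CPM in the control samples and 19.1, 23.9 and 24.3 CPM in the CLs-treated samples.

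**Figure D2:**
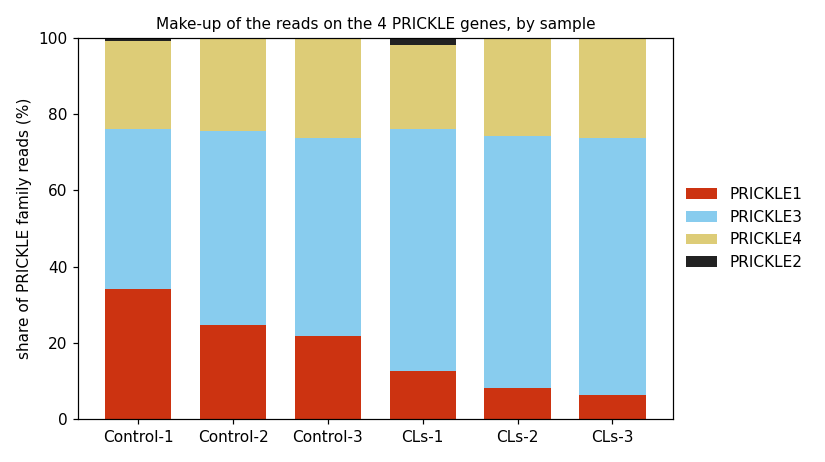
Share of the reads on PRICKLE1, PRICKLE2, PRICKLE3 and PRICKLE4 (y axis, percent of the reads on the 4 genes) in each of the 6 samples (x axis, 1 bar per sample). The red segment, PRICKLE1, spans 21.9 to 34.3% in the control samples and 6.50 to 12.7% in the CLs-treated samples.

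PRICKLE3, VANGL1, CELSR1, CELSR2, CELSR3, DVL1 and DVL2 had more reads than PRICKLE1, and none of these 7 passed the test. With the study's limits (adjusted p-value under 0.05, fold change over 1.5 or under 0.67), 0 of the 7 were up- or down-regulated in edgeR's quasi-likelihood test. Over all 15047 genes tested, 0.0133% were called up-regulated and 0.0731% down-regulated, and a count of 0 among 7 genes does not stand apart from this background. Likewise 0 of the 7 had an unadjusted p-value under 0.05, against 5.81% of all genes tested. DESeq2's Wald test called 0 of the 7 at the same criteria, against 0.714% of the genes to which it gave an adjusted p-value. In 0 of the 7 the treated samples all lay above the control samples, which was seen in 5.34% of all genes tested, and in 0 they all lay below, which was seen in 6.18%. The 95% interval of the fold change lay between 0.67 and 1.5 for 7 of the 7 genes, each interval being taken on its own. Without CLs-1 the log2 fold changes of the 7 lay between -0.14 in CELSR1 and 0.13 in CELSR3, and 0 of the 7 were called. The median log2 fold change of the 7 was -0.09, and that of all genes tested was 0.01.

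VANGL1, which encodes a membrane protein that binds Prickle, had 492, 473 and 480 counts in the control samples and 623, 427 and 506 counts in the CLs-treated samples. On the scaled level the treated samples lay on both sides of the controls, at 41.6 ± 1.01 CPM (SD, n = 3) in the control group and 41.5 ± 3.99 CPM (SD, n = 3) in the treated group. VANGL1 thus had a log2 fold change of -0.0039 (95% interval -0.30 to 0.30). Its sign turned with library totals only, without a filter on low counts, and without Control-1 or CLs-2. VANGL2, its paralog, had 1 count in CLs-1 and 0 in the other 5 samples, so that nearly all reads on the Vangl genes were on VANGL1.

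The 3 CELSR genes, which encode the large cadherins that bridge neighbouring cells, had similar depth and no shared direction. CELSR1 had 568, 623 and 688 counts in the control samples and 775, 519 and 608 in the CLs-treated samples, a log2 fold change of -0.09 (95% interval -0.40 to 0.21). CELSR2 was the most spread gene among the controls, with 524, 788 and 1043 counts against 812, 754 and 789 in the CLs-treated samples. Its treated samples thus lay within the range of the controls, with 67.7 ± 21.97 CPM (SD, n = 3) in the control group and 63.5 ± 6.61 CPM (SD, n = 3) in the treated group. Fitted over all samples, its log2 fold change was -0.09 (95% interval -0.56 to 0.37), and without Control-3 it was 0.16. CELSR3 had 650, 731 and 727 counts in the control samples and 849, 798 and 726 in the CLs-treated samples, a log2 fold change of 0.07 (95% interval -0.21 to 0.36). In each of the 3 genes the difference between the groups was smaller than the spread between the control samples. The adjusted p-value of each was 0.998 in edgeR's test.

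DVL1 and DVL2, which encode the Dishevelled proteins that receive the signal from Frizzled, also overlapped between the groups. DVL1 had 639, 657 and 731 counts in the control samples and 827, 701 and 635 in the CLs-treated samples. Its level was 58.3 ± 3.85 CPM (SD, n = 3) in the control group and 57.8 ± 2.53 CPM (SD, n = 3) in the treated group. DVL1 had a log2 fold change of -0.012 (95% interval -0.29 to 0.27), with a sign that turned with library totals only and without Control-3 or CLs-3. DVL2, the most deeply counted of the 10 genes, had 1339, 1336 and 1560 counts in the control samples and 1365, 1520 and 1315 in the CLs-treated samples. Its log2 fold change was -0.10 (95% interval -0.43 to 0.23), and without CLs-1 it was 0.017. DVL3, the remaining Dishevelled gene, had 1348 to 1461 counts in the control samples and 1316 to 1474 in the CLs-treated samples. After scaling, its groups did not overlap, with 121.9 ± 4.28 against 110.6 ± 7.41 CPM (SD, n = 3 each), and its log2 fold change was -0.14 (SE 0.12, edgeR adjusted p = 0.998). DVL2 made up 39.1 to 41.6% of the reads on the 3 Dishevelled genes in the control samples and 37.2 to 42.9% in the CLs-treated samples.

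**Figure D3:**
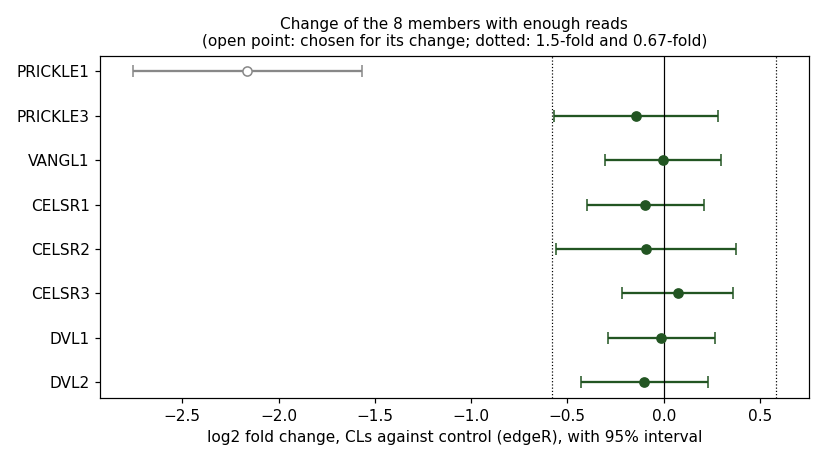
Log2 fold change of the CLs-treated against the control group (x axis) for the 8 members with enough reads (y axis), from edgeR, with its 95% interval as a bar. The open point is PRICKLE1, chosen for its change, at -2.16; the 7 filled points lie between -0.14 and 0.07, and their intervals stay within the dotted lines at fold changes of 0.67 and 1.5.

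Levels of different genes were compared per length, as CPM per kilobase of exonic sequence in GENCODE release 29. In the control group the Dishevelled genes were highest, with DVL2 at 22.8 ± 1.94, DVL3 at 19.1 ± 0.672 and DVL1 at 15.3 ± 1.01 CPM per kilobase (SD, n = 3 each), and the ranges of these 3 genes did not overlap. CELSR2, PRICKLE3, VANGL1, CELSR3 and CELSR1 followed at 5.48, 5.08, 4.59, 4.37 and 4.22 CPM per kilobase, and each overlapped its neighbour in this order. PRICKLE1 lay below all of these and below PRICKLE4 (3.04 CPM per kilobase), with a level of 1.10 ± 0.245 CPM per kilobase in the control group and 0.242 ± 0.0513 in the CLs-treated group (SD, n = 3 each). In the CLs-treated group the order was the same except that CELSR3 stood above VANGL1, and DVL2 then overlapped DVL3. The annotation behind the deposited counts may give other lengths, which would move the levels between genes but not the fold changes.

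The genes whose levels over the 6 samples were most like those of PRICKLE1 lay outside the planar cell polarity list. By the distance between log2 CPM values, each gene centred on its own mean, the nearest of 15046 genes were CYR61 (distance 0.797, Pearson r = 0.95), TINAGL1 (0.897, r = 0.96), OLR1 (0.955, r = 0.96), FGFBP1 (1.00, r = 0.96) and ABCB1 (1.01, r = 0.92). CYR61, which encodes a secreted matrix protein, had 6468, 2963 and 2893 counts in the control samples and 2131, 1193 and 848 in the CLs-treated samples. As in PRICKLE1, Control-1 was the highest control and CLs-3 the lowest treated sample. FGFBP1, which encodes a carrier of fibroblast growth factors, had 140, 128 and 124 counts in the control samples and 84, 38 and 44 in the CLs-treated samples. Of the other members, CELSR1 was the nearest, at rank 4083 (r = 0.30), and CELSR2 the farthest, at rank 10223 (r = -0.11). CELSR3, at rank 9028, had the lowest correlation (r = -0.53). The 6 points of each correlation share the treatment, so these values describe likeness over these samples only. PRICKLE1 was chosen for its lower treated values, so the distance favours genes that also fell. The nearest genes had log2 fold changes from -2.39 in TINAGL1 to -1.37 in OLR1. Members with little change could not come near, so their ranks are no evidence about the pathway.

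Lists of further genes of the pathway and of its neighbours were written with earlier results of these data known, and held 73 genes, of which 59 had enough reads. In edgeR's test 0 of the 59 were up-regulated, against 0.0133% of all genes tested, and 1 was down-regulated, against 0.0731%. DESeq2's Wald test also called 1, against 0.714% of the genes to which it gave an adjusted p-value. The gene called by both tests was already known to have fallen when the lists were written. These counts are therefore a description and no test of an excess over all genes. The median log2 fold change of the 59 was -0.13, with 46 below 0, against 7215 of the 15047 genes tested. On the CPM scale the treated samples all lay below the controls in 5 of the 59 genes, against 6.18% of all genes tested, and all above in 0. These 5 were PRICKLE4, DVL3, ROR1, WNT5A and ARHGAP23. An unadjusted p-value under 0.05 was found for 6 genes, against 5.81% of all genes tested, namely PRICKLE4, ROR1, WNT5A, DAAM1, PHLDB2 and ARHGAP23. DVL3, WNT5A and PHLDB2 are named here because of these values and not by the rule for named genes.

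The gene that passed was ARHGAP23, which stood in the list of 8 proteins described to bind PRICKLE1. It had 2697, 2853 and 3016 counts in the control samples and 1687, 1619 and 1646 in the CLs-treated samples. The groups were far apart relative to their spread, at 246.4 ± 12.2 CPM (SD, n = 3) in the control group and 133.6 ± 14.8 CPM (SD, n = 3) in the treated group. ARHGAP23 had a fitted log2 fold change of -0.88 with an SE of 0.13, and the adjusted p-value in edgeR was 0.0440. The call ended with library totals only, where the log2 fold change was -0.86. It also ended when any 1 of the 6 samples was left out, with log2 fold changes of -0.94 to -0.79 (-0.79 without CLs-1). The call held in the other alternatives, with adjusted p-values of 1.42e-06 by DESeq2's Wald test and 0.00974 by edgeR with the replicate block. Over all alternatives the adjusted p-values ran from 1.42e-06 to 0.220. As ARHGAP23 was already known to have fallen when the list was written, its p-values only describe it. It is not independent support for the list. Its close relative ARHGAP21 had 129.8 ± 19.2 CPM (SD, n = 3) in the control group and 125.6 ± 15.01 CPM (SD, n = 3) in the treated group. PHLDB2, a protein of the cell cortex near focal adhesions, had 405, 511 and 665 counts in the control samples and 423, 379 and 420 in the CLs-treated samples, a log2 fold change of -0.46 (SE 0.19, edgeR adjusted p = 0.754). Over the 8 partners the log2 fold changes ranged from -0.88 to 0.25, with 6 below 0.

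Among 8 ligands and receptors of non-canonical Wnt signalling, 7 had enough reads and 0 were called. WNT5A, the ligand best known to drive planar cell polarity, had 1842, 2236 and 2450 counts in the control samples and 1940, 1310 and 1712 in the CLs-treated samples, which on the CPM scale lay below all controls. Its fitted log2 fold change was -0.50 (SE 0.15, edgeR adjusted p = 0.430). ROR1, a receptor tyrosine kinase that binds Wnt5a, had 192, 139 and 135 counts in the control samples and 128, 91 and 91 in the CLs-treated samples. Its log2 fold change was -0.70 (SE 0.21, edgeR adjusted p = 0.381), while its paralog ROR2 had a value of 0.14 (SE 0.14). WNT5B had 13, 24 and 56 counts in the control samples and 37, 9 and 9 in the CLs-treated samples, groups that overlapped, and a log2 fold change of -0.91 (SE 0.57, edgeR adjusted p = 0.950). This value rested on single samples, being -1.76 without CLs-1 and -0.17 without Control-3, and it passed the test in neither fit.

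The other lists held no called gene. Of 8 further core genes, 7 were tested, and their log2 fold changes ran from -0.58 in PRICKLE4 to 0.28 in FZD3, a Frizzled receptor of planar cell polarity. Of 7 genes of the Fat and Dachsous cadherin module, 3 were tested, with FAT1 at -0.21 and FJX1 at -0.12. DCHS1 was read 13 times in CLs-1, once in CLs-2 and in no other sample. Of 12 effectors, 10 were tested, with DAAM1, a formin that binds Dishevelled, at -0.64 (SE 0.29, edgeR adjusted p = 0.847) and INTU, a ciliary effector, at 0.30. DAAM2, a relative of DAAM1, had 17 counts in CLs-1, 1 in Control-1 and 0 elsewhere. All 7 genes of turnover and traffic were tested, with CSNK1E, a kinase that phosphorylates Dishevelled, at -0.30 and GIPC1 at -0.16. Of 11 beta-catenin targets, 7 were tested, with LGR5 at -1.12 (SE 0.53, edgeR adjusted p = 0.865) from 7 to 32 counts in the control samples and 6 to 17 in the CLs-treated samples. AXIN2 was at -0.75, and without Control-2, which held 58 counts against 13 to 21 elsewhere, at 0.21. Of 12 apical-basal polarity genes, 10 were tested, and their log2 fold changes lay between -0.39 in MPP5 and -0.013 in DLG1, with INADL at -0.38. DCHS1 and DAAM2 thus had all but 1 read each in the sample that also held the 476 red blood cell and 466 steroidogenic counts, and the part of such cells in these values was not tested. Fits without CLs-1 were compared only for the further genes named by the rule or for their values. Among these the log2 fold changes that moved most, after WNT5B, were -1.39 for LGR5, -0.91 for DAAM1, -0.64 for MPP5 and -0.43 for FAT1. None of these passed the test, and other tested genes of the lists may have moved as much.

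**Figure D4:**
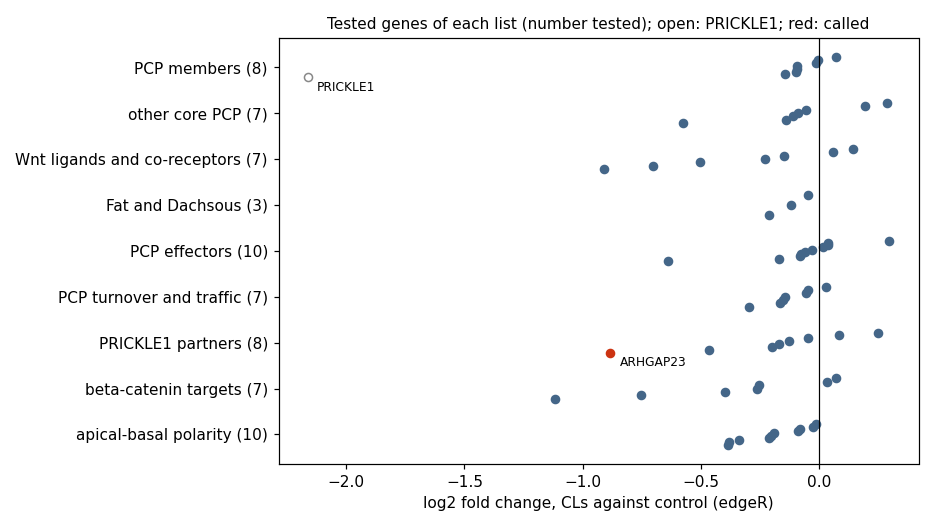
Log2 fold change of the CLs-treated against the control group (x axis) for each tested gene (points) of the 10 planar cell polarity genes and of 8 further lists (y axis, number of tested genes in brackets). The open point is PRICKLE1 at -2.16 and the red point is ARHGAP23 at -0.88, the gene called by edgeR in the further lists; all other points lie between -1.12 and 0.30.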

How the data were processed

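Total RNA was sequenced as single-end Ion Proton reads in 3 control and 3 CLs-treated samples. The authors filtered the reads, mapped them with MapSplice and deposited whole-number counts per gene symbol without normalization. The submitters' processing notes name HTSeq 0.6.1 and the build hg19 (GRCh37). The handling of reads that match several places is not given in the sources used here. All 6 columns were used.

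The filter filterByExpr of edgeR 4.0.16 (R 4.3.3) kept 15047 genes, whose counts were TMM-scaled and compared between the groups by its quasi-likelihood F test. Condition was the only term, and p-values were adjusted by Benjamini-Hochberg over all of these genes. A call needed an adjusted p-value under 0.05 together with a fold change over 1.5 or under 0.67, as in the study. Its EBSeq test was not run here. Standard errors and 95% intervals were derived from the F statistic. For 1 gene, an exact permutation of 3 samples against 3 has p = 0.10 as its smallest value. Totals per sample were 11418527 to 13998946 counts. Replicates of a group differed by more than sampling noise, at a chi-square per degree of freedom of at least 8.26. It was 35.0 and 20.0 for Control-3 with Control-1 and Control-2, and 30.8 and 28.3 for CLs-1 with CLs-2 and CLs-3.

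The members and lists were chosen with earlier results of these data known. Named were the 10 genes, in each further list the genes called or else the 2 with the largest change, and the 5 genes nearest to PRICKLE1 in log2 CPM (prior count 2). Exon lengths and overlaps came from GENCODE release 29, matched by symbol for all 10 genes. The alternatives were DESeq2 1.42.0, other scaling and filters, calls without the fold criterion, a replicate block, and fits that left out 1 sample each. The script for edgeR was first tested on simulated data.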

Additional observations from a re-analysis of the deposited data

How the results depend on the processing

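In all 13 alternatives, 0 of the 7 other members were called, including the replicate block. The log2 fold change of PRICKLE1 kept its direction, from -2.17 to -2.13 over the 6 alternatives that used all samples and from -2.34 to -1.96 when each sample was left out. The number of genes called in the whole table was 13, and it was 104 with DESeq2, 171 without a filter, 8 with library totals only, 68 with the replicate block and 3 to 7 when each sample was left out. The further pathway genes called were 1, and 0 with library totals only and whichever sample was left out (0 to 0). The causes of these differences were not tested. Where 1 sample was left out, the smaller number of samples and the sample removed cannot be told apart. Sign changes were limited to log2 fold changes that passed no test. VANGL1 was at 0.023 with library totals only and 0.0027 without a filter, and from -0.054 to 0.073 with each sample left out. DVL1 was at 0.012 with library totals only and from -0.046 to 0.044 with each sample left out. The ranges with each sample left out were -0.31 to 0.16 for CELSR2, -0.22 to 0.017 for DVL2, -0.23 to 0.012 for FJX1 and -1.11 to 0.21 for AXIN2.

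Replicate numbers are shared between the groups in the labels. The deviations of same-numbered samples from their group means had correlations across genes of 0.111, 0.0987 and 0.305. Those of samples with unlike numbers ran from -0.201 to 0.0783. As not every same-numbered pair was over 0.1, the main fit had no term for the number. The pair under this limit, Control-2 with CLs-2, missed it narrowly at 0.0987. The p-values of the main fit thus leave out whatever same-numbered samples share. This limit does not settle whether same-numbered samples were handled together, which was not tested. Each sample correlated best with the sample of its own number in the other group. In the fit with the replicate block the log2 fold change of PRICKLE1 was -2.17. That fit called 68 genes in the whole table, against 13 in the main fit. Depth limits what can be said of PRICKLE2 and VANGL2, whose counts were at or near the floor of 3.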
